A study of Caenorhabditis elegans with 19 samples.

Results

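The touch receptor neuron genes described here are unc-86, mec-3, mec-4, mec-7, mec-10, mec-12, mec-17 and mec-18 of Caenorhabditis elegans. They were chosen by name, as the rows of the annotated peak and site tables that the authors assigned to these 8 genes, out of 18846 genes with a row in any of those tables. The study mapped the genomic occupancy of LIN-14, a nuclear regulator of when larval events occur, by chromatin immunoprecipitation and sequencing (ChIP-seq) of whole larvae. The larvae carried LIN-14 fused to GFP at its C terminus (labelled lin14(cc2841[lin-14::gfp]), and GFP-binding beads were used to capture the chromatin. Larvae of the second stage (L2) were taken 21 ± 1 hours after plating on food and gave 5 ChIP and 4 input libraries, and larvae of the first stage (L1) were taken at 8 ± 1 hours and gave 5 ChIP and 4 input libraries. Each replicate pooled about 600000 animals. A further ChIP library of L1 larvae of N2, a strain without the GFP tag, was not analysed here, so peaks that appear without the tag were not set aside.

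Touch receptor neurons sense gentle touch to the body wall. The POU homeodomain factor UNC-86 acts in their lineages and switches on mec-3, whose LIM homeodomain product then works together with UNC-86 to turn on the genes of the mature cell. Those genes encode the subunits of a mechanically gated sodium channel (mec-4 and mec-10), the tubulins of unusually thick microtubules (mec-7 and mec-12), a tubulin acetyltransferase (mec-17) and proteins needed for touch sensitivity such as MEC-18. These neurons are a small part of a larva, several of the genes are also used in other neurons (unc-86 in many, mec-3 and mec-10 in other mechanosensory cells), and the chromatin came from whole animals. The cells in which a site was bound are therefore not known, and fewer cells with LIN-14 on a site cannot be told apart from less LIN-14 per cell.

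Every one of the 8 genes had LIN-14 peaks in L1, as did 18651 of the 18846 genes with any peak or listed site. Genes with neither are left out of the 18846, so that share is no baseline for genes picked by name. In L2, 3 of the 8 (unc-86, mec-4 and mec-7) had an assigned peak. The L2 list held 7 peaks of these genes and the L1 list 24. All 7 L2 peaks overlapped an L1 peak of the same gene, as did 97.8% of the whole L2 list with some L1 peak. In turn 7 of the 24 L1 peaks (29.2%) overlapped an L2 peak, against 20.9% of the whole L1 list, and having an L2 peak at all was the case for 32.8% of genes with an L1 peak. The lists differ in length, with 8333 annotated peaks in L2 and 37018 in L1, so a gene without an L2 peak is not shown to be unbound in L2. Peaks were called on merged libraries, so there is 1 list per stage with no value per library, and the read depth is unknown.

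**Figure D1:**
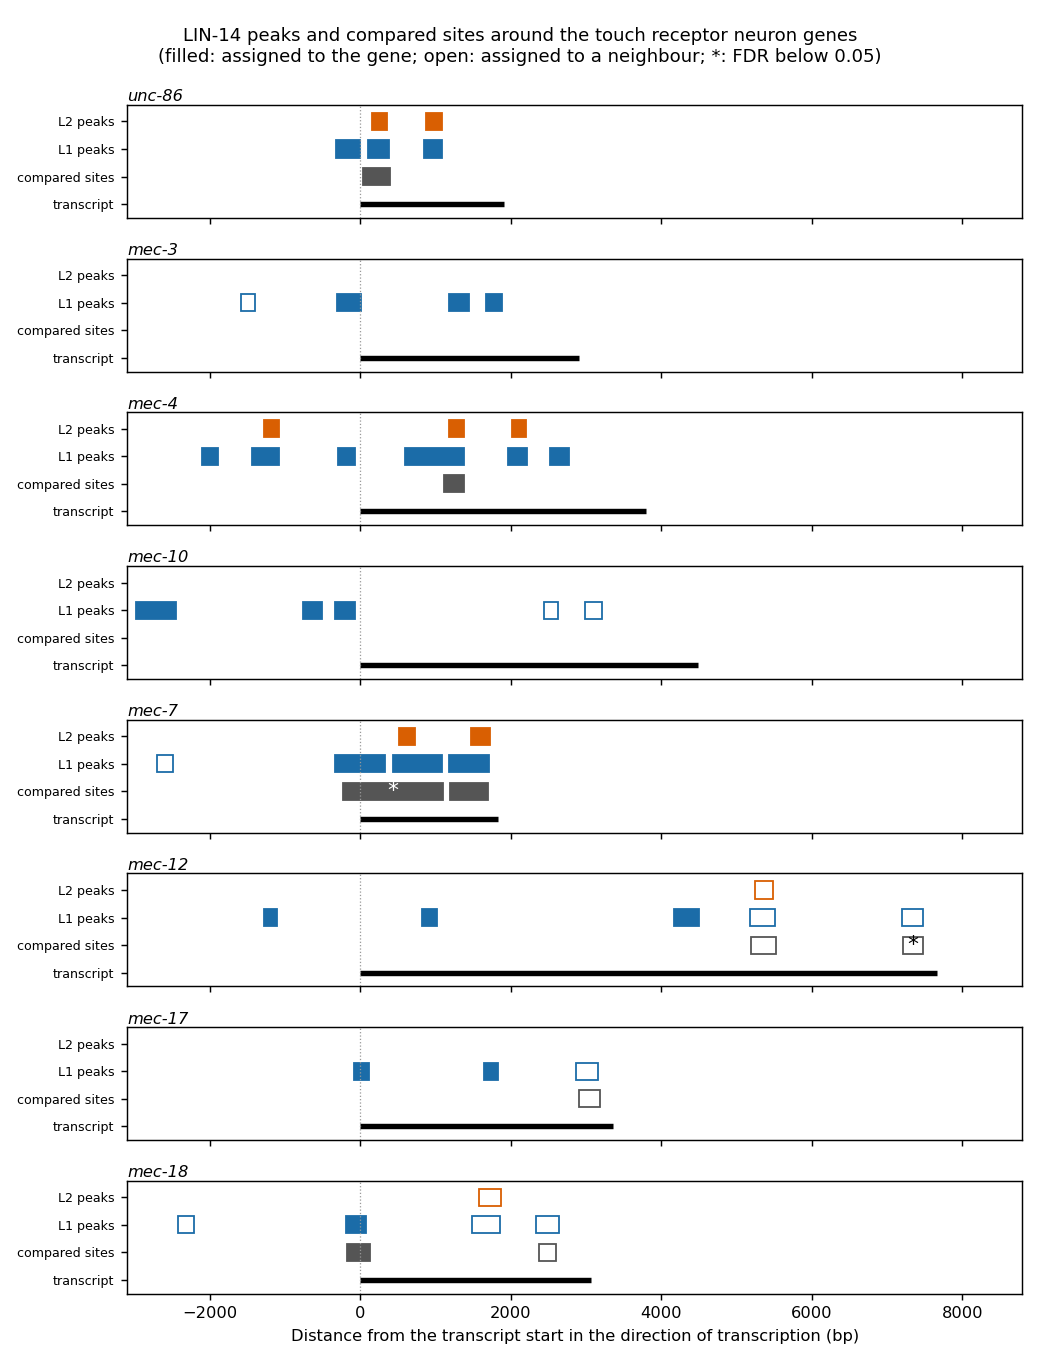
Positions of L2 peaks, L1 peaks and compared sites around each gene, in bp from the transcript start in the direction of transcription, with the transcript as a black line. All features that lie within 3 kb before the start and 1 kb past the end are drawn; filled boxes were assigned to the gene, open boxes to a neighbour, and a star marks an FDR below 0.05. The L1 row is filled in all 8 genes and the L2 row in 3, while open boxes lie inside mec-10, mec-12, mec-17 and mec-18.

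Peaks of these genes were numerous but mostly of ordinary height. Of the 8 genes, 6 had 3 or more L1 peaks, which 24% of all genes with an L1 peak had, and mec-4 had 6, a number reached or passed by 2.9%. These counts were not adjusted for gene length or for the distance to the next transcript start. Fold enrichment over control at the summit, the authors' value for each peak, ran in the 7 L2 peaks from 1.38 to 1.65 with a median of 1.53, against 1.54 in the whole L2 list. In the 24 L1 peaks it ran from 1.37 to 2.38 with a median of 1.741, against 1.81 in the whole L1 list. Of the 7 L2 peaks 1 lay above the upper quartile of the L2 list, and of the 24 L1 peaks 1, at unc-86, lay above the upper quartile of the L1 list. The annotation put 15 of the 24 L1 peaks within 1 kb of a transcript start, counted to either side (62.5%, against 56% of the whole list). It put 8 more in the promoter classes out to 3 kb, and 1 in an exon. The summit lay inside the transcript for 6 of the 7 L2 peaks and for 13 of the 24 L1 peaks (54.2%, against 50.6% of the whole L1 list). The other 11 L1 summits lay upstream of the start, where 34.2% of the whole L1 list had theirs. The promoter classes therefore include many peaks over the gene bodies.

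**Figure D2:**
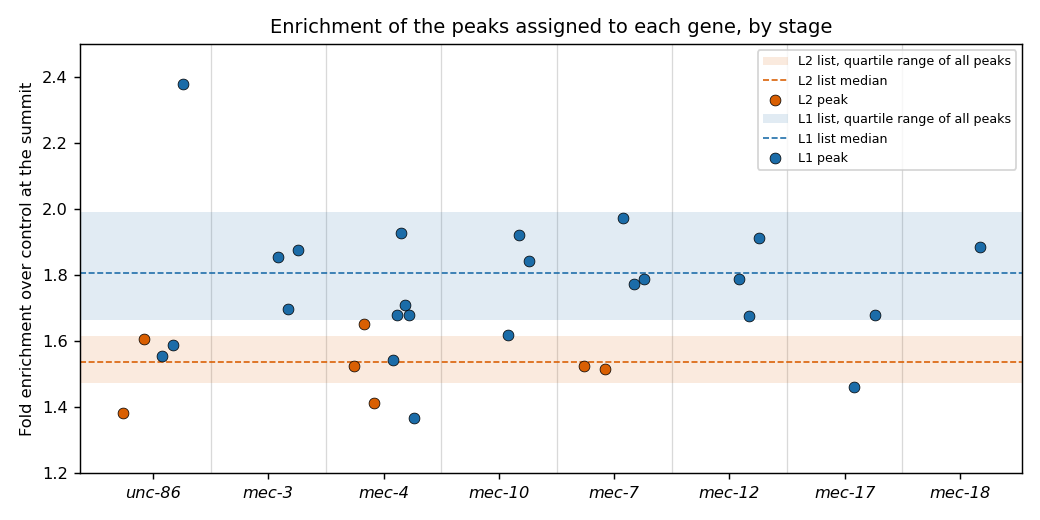
Fold enrichment over control at the summit of each peak assigned to the 8 genes (points; L2 left of L1 in each column), with the median (dashed line) and the quartile range (band) of each whole list. Except for 1 L1 peak of unc-86 at 2.38, the L1 peaks lie at or below 1.97, under the upper quartile of the L1 list of 1.99.

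Among the regulators, unc-86 held the strongest of the L1 peaks assigned to the 8 genes. In L2, a peak at 8214233 to 8214423 on chromosome III, with its summit 241 bp past the start of transcript NM_001322687, had a fold enrichment of 1.60, and 27.3% of the L2 list was higher. In L1, a peak at 8214205 to 8214487 with its summit at 261 bp had a fold enrichment of 2.38, and 3.43% of the L1 list was higher. The summits of this pair lay 20 bp apart. A second pair lay further into the gene, with L2 and L1 summits 963 and 962 bp past the start, at a fold enrichment of 1.38 in L2 and 1.59 in L1. The remaining L1 peak (1.55), just before the start with its summit 110 bp upstream, had no L2 counterpart. The lists were called separately, so the enrichments of a pair are set side by side and not compared.

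The other regulator, mec-3, had 3 L1 peaks and none in L2. The one at the start of the longer transcript NM_001356932 (chromosome IV, 10461741 to 10462052) had its summit 59 bp upstream and a fold enrichment of 1.70. Both others lay over the body of the gene, with summits 581 and 1105 bp past the start of the shorter transcript NM_001136380, at 1.85 and 1.88. All 3 were within the quartile range of the L1 list. None overlapped a site listed in the comparison of the stages.

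The channel genes differed in the number of L2 peaks. At mec-4, which encodes the main pore-forming subunit, 3 L2 peaks and 6 L1 peaks spread over the gene and its upstream region on chromosome X. The highest in each list fell inside the transcript, at 16805661 to 16805870 in L2 (fold enrichment 1.65, summit 1300 bp past the start) and at 16805667 to 16806444 in L1 (1.93, summit 1253 bp). The L1 peak was 778 bp wide, the widest of the 24, whose median was 262 bp. The other L2 peaks had summits 2151 bp past the start (1.53) and 1215 bp before it (1.41), and each lay on an L1 peak of fold enrichment 1.68. The peak nearest to the mec-4 start, with its summit 191 bp upstream (1.71), appeared in L1 only in these lists, as did peaks 2670 bp downstream (1.54) and 2093 bp upstream (1.37). The last of these was the weakest of the 24, with 99.6% of the L1 list higher.

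At mec-10, the partner subunit, there were 3 L1 peaks and no L2 peak. All 3 lay upstream of the start on chromosome X, with summits 245, 614 and 2832 bp before it and a fold enrichment of 1.84, 1.62 and 1.92. The farthest, at 8472718 to 8473239, was the highest of the 3 and 522 bp wide. No site assigned to mec-10 was listed in the comparison of the stages.

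The beta-tubulin gene mec-7 was the most widely covered of the 8. Peaks of any assignment lay over 25.1% of its transcript in L2 and over 82.6% in L1. In the other 7 genes this share was 0% to 21.1% in L2 and 9.21% to 33.6% in L1. Its L2 peaks had summits 582 bp (fold enrichment 1.53) and 1621 bp (1.51) past the start. Its 3 L1 peaks ran almost end to end from 7774924 to 7776974 on chromosome X. They had summits 178, 984 and 1299 bp past the start and enrichments of 1.77, 1.79 and 1.97. Although each L2 peak lay within or almost within an L1 peak, the summits were 402 and 322 bp apart, farther than the 1 to 75 bp at the other 5 pairs.

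The alpha-tubulin gene mec-12 had 3 L1 peaks and no L2 peak assigned to it. Their summits lay 1185 bp before the start (1.68), 901 bp past it (1.91) and 4423 bp past it (1.79). The last, at 3134723 to 3135055 on chromosome III, was annotated to exon 3 of 5, numbered in the files along the coordinates and thus against the direction of transcription. At mec-17, the acetyltransferase that modifies alpha-tubulin, the 2 L1 peaks were weak, with a peak over the start (chromosome IV, 7987037 to 7987233, fold enrichment 1.68) and another 1711 bp past it (1.46). Of the L1 list 71.1% and 97.1% were higher than these. Tubulin genes resemble each other in their coding sequence, and the sources used here do not say how reads that fit more than 1 copy were treated.

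At mec-18, which encodes a protein related to acyl-CoA ligases, a single L1 peak straddled the start (chromosome X, 4274127 to 4274396). Its summit lay 77 bp upstream and its fold enrichment was 1.88. No L2 peak was assigned to the gene.

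Because each peak was assigned to the nearest transcript start, 7 L1 peaks and 2 L2 peaks that lie inside 4 of these genes carry a neighbour's name. The largest were in mec-12, where an L2 peak (1.742, with 5.58% of the L2 list higher) and an L1 peak (2.60, with 1.02% of the L1 list higher) in exon 2 of 5 were assigned to Y53G8B.1. That L1 peak, at 3133719 to 3134044 on chromosome III, was higher than any of the 24. A further L1 peak near the 3' end of mec-12 (2.38, summit 7303 bp past its start) was also assigned to Y53G8B.1. Inside mec-18, an L2 peak (1.53) and L1 peaks of 1.65 and 1.82 were assigned to C52B9.10. Inside mec-10, L1 peaks of 1.75 and 1.49 went to F16F9.15, and inside mec-17 an L1 peak of 1.90 went to arf-3. Counted by overlap with the transcripts extended by 1 kb on both sides, 8 L2 peaks and 27 L1 peaks belonged to the 8 genes, and the genes with an L2 peak numbered 5 instead of 3.

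The comparison of the stages asked where LIN-14 occupancy differed between L2 and L1. In the authors' deposited table, which lists only sites with a false discovery rate (FDR) up to 0.3, 5 sites were assigned to 4 of the 8 genes: 2 to mec-7 and 1 each to unc-86, mec-4 and mec-18. One of the 5, at the start of mec-7, was lower in L2 at an FDR below 0.05. None was higher, as 0.123% of all listed sites were. Of all 14675 listed sites, 41.4% were lower in L2 at that threshold in the authors' deposited table, and 49.4% of genes with a listed site had at least 1 such site. An FDR below 0.01 left 0 of the 5 sites and 1.8% of all, and an FDR below 0.1 took 2 of the 5 and 67.9% of all in the authors' deposited table, where 2 of the 5 and 64% of all were lower at an unadjusted p under 0.05. Having a listed site was the case for 53.2% of genes with an L1 peak. No site was listed for mec-3, mec-10, mec-12 or mec-17, and 6 of the 24 L1 peaks (25%) overlapped a listed site, against 38.7% of all L1 peaks. Which of the other 18 were tested and missed an FDR of 0.3, and which were never tested, cannot be told. About 16890 sites were tested by estimate, 14675 of them listed, and 14331 of the 37018 L1 peaks overlapped a listed site. On this estimate most L1 peaks without a listed site were never tested.

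The lowered site of mec-7 covered the start and the first part of the gene (chromosome X, 7775538 to 7776869), a stretch that held 1 L2 peak and 2 L1 peaks. Its log2 concentration, the log2 mean of normalised reads, was 6.93 in L2 and 7.46 in L1 in the authors' deposited table. The log2 fold was -0.53 ± 0.19 in the authors' deposited table (SE derived from the deposited p; FDR 0.026), an occupancy lower by 30.7% in L2. Its 95% interval, from -0.89 to -0.17, includes the median of all listed sites in the authors' deposited table, -0.44. The second mec-7 site, over the later part of the gene (7774938 to 7775443), had concentrations of 6.03 in L2 and 6.37 in L1 in the authors' deposited table, and its log2 fold of -0.33 ± 0.18 missed the threshold (FDR 0.109). The difference between the folds of these 2 sites was not tested.

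The site of unc-86, on its strongest peak (chromosome III, 8214191 to 8214543), had concentrations of 5.57 in L2 and 5.93 in L1 in the authors' deposited table. Its log2 fold of -0.36 ± 0.18 had an unadjusted p of 0.0479 in the authors' deposited table and missed the threshold after adjustment (FDR 0.0872). For mec-4, the site over its highest peak pair (chromosome X, 16805665 to 16805928) had concentrations of 5.43 in L2 and 5.68 in L1, with a log2 fold of -0.25 ± 0.19 in the authors' deposited table (FDR 0.225). The start site of mec-18 (chromosome X, 4274081 to 4274384) had 5.65 in L2 and 5.93 in L1, with -0.27 ± 0.22 in the authors' deposited table (FDR 0.27). At mec-4 and mec-18 the 95% intervals reached from -0.62 to 0.12 and from -0.71 to 0.17 on the authors' deposited table, so drops as large as that of the mec-7 start are within both.

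The authors' deposited table also gives 4 sites inside the transcripts of these genes to neighbouring genes. One near the 3' end of mec-12 (chromosome III, 3131749 to 3132017), assigned to Y53G8B.1, was lower in L2, with log2 concentrations of 5.24 in L2 and 5.88 in L1 and a log2 fold of -0.64 ± 0.20 in the authors' deposited table (FDR 0.0185). The others missed the threshold. They were the site on the exon peak of mec-12 that was assigned to Y53G8B.1 (-0.36, FDR 0.149), one inside mec-17 assigned to arf-3 (-0.29, FDR 0.204) and one inside mec-18 assigned to C52B9.10 (-0.29, FDR 0.217) in the authors' deposited table.

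The median of the 5 folds from the authors' deposited table was -0.33, against -0.44 over all listed sites, whose quartiles were -0.55 and -0.35. At 4 of the 5 sites the fold was less negative than the common median of the authors' deposited table, and at the mec-7 start it was more negative, with 27.4% of listed sites beyond it. All 5 were below 0, as were 99.7% of the sites in the authors' deposited table. Listing at an FDR up to 0.3 left out folds near 0 in either direction, the smallest listed being 0.18 away from 0. It did not set each listed fold apart from 0: the 95% intervals at mec-4, mec-18 and the later mec-7 site included 0. Because nearly all listed sites were below 0, 5 drops in a row carry no weight of their own.

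Set per length, the mec-7 start site went to the bottom of the order. A concentration counts all reads over a site, and the mec-7 start site was 1332 bp wide, with 1.02% of listed sites wider. Per kb of site, the means of the authors' deposited table came to 165 normalised reads in L2 and 201 in L1 at mec-18, and to 163 in L2 and 194 in L1 at mec-4. At unc-86 they came to 135 in L2 and 173 in L1 on the authors' deposited table. At the later mec-7 site they were 129 in L2 and 163 in L1, and at the mec-7 start site 91.5 in L2 and 132 in L1, from the authors' deposited table. The order was the same in both stages, with mec-18 and mec-4 at the top and the mec-7 start at the bottom, below 99.3% of all listed sites in L1. It ran largely against site width, which was 304 bp at mec-18, 264 bp at mec-4, 353 bp at unc-86 and 506 bp at the later mec-7 site. The order is therefore not a ranking of binding strength at the summits. No values per library were at hand, so whether neighbours in this order differ beyond replicate error was not tested.

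**Figure D3:**
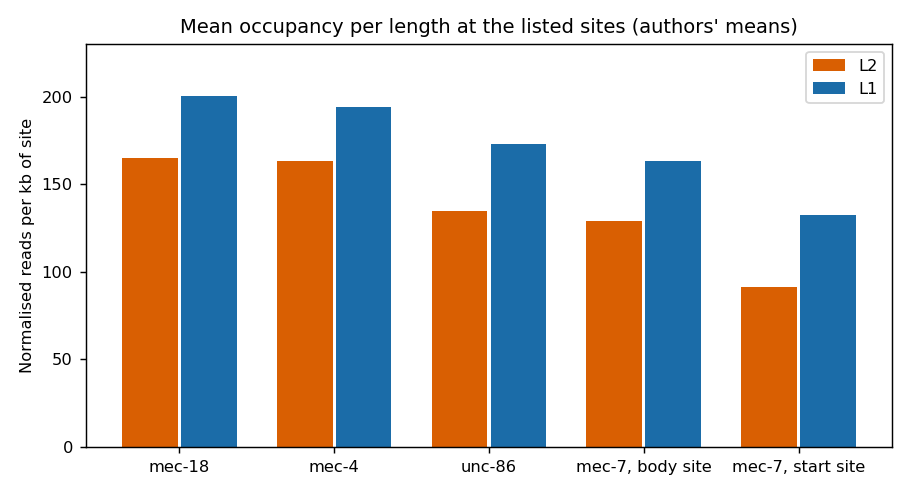
Mean normalised reads per kb of site in L2 and L1 at the 5 listed sites, computed from the log2 concentrations in the authors' deposited table; no values per library were at hand, so there are no error bars. The L2 bar is the lower one at each site, and the mec-7 start site is lowest in both stages at 91.5 in L2 and 132 in L1.

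A list of 21 other genes of these neurons was set beside the 8. It holds partners of the channel, matrix proteins, microtubule proteins and regulators of the cell fate. Of these, 3 had an L2 peak and 14 an L1 peak. The 18651 of 18846 genes given above are no baseline for this count, because genes with neither a peak nor a listed site are left out there. No peak was assigned to the other 7 (mec-8, mec-14, unc-24, crt-1, alr-1, lin-32 and egl-5). A listed site was assigned to 8 of the 21, with 11 sites in all, of which 4 were lower in L2 at an FDR below 0.05 and 0 were higher in the authors' deposited table, made with DiffBind (6 of the 11, all of them lower, had an unadjusted p under 0.05, against 64% of all listed sites). Their share is to be read against the 41.4% of all listed sites in the authors' deposited table, and their median log2 fold there was -0.44, the same as that of all listed sites.

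The 4 lowered sites belonged to mec-9, mec-1, atat-2 and mec-6. The genes mec-9 and mec-1 encode extracellular proteins of the touch receptor neuron matrix, and their sites near the start had log2 folds of -0.59 ± 0.22 (FDR 0.0336) and -0.58 ± 0.23 (FDR 0.039) in the authors' deposited table. The tubulin acetyltransferase gene atat-2, a relative of mec-17, had a site at -0.54 ± 0.22 (FDR 0.0443) in the authors' deposited table. At mec-6, which encodes a paraoxonase-like partner of the MEC-4 channel, the log2 fold was -0.52 ± 0.20 (FDR 0.0394) in the authors' deposited table. None of these 4 genes had an assigned L2 peak, although 1 L2 peak assigned to another gene covered 307 bp of the mec-1 transcript.

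The sites assigned to the other genes did not pass. Further mec-1 sites had folds of -0.43 and -0.31, the F-box gene mec-15 one of -0.37, and the aryl hydrocarbon receptor gene ahr-1 folds of -0.46 and -0.44 in the authors' deposited table. The TEAD factor gene egl-44, which represses touch receptor fate in the related FLP neurons, had a fold of -0.39 (FDR 0.113), and the homeobox gene vab-15 had one of -0.28 (FDR 0.179) in the authors' deposited table. The stomatin-like channel partner mec-2, with 1 L2 peak and 3 L1 peaks, had no listed site assigned to it. Sites assigned to neighbours add to these counts. By overlap with the gene extended by 1 kb, 2 of 5 sites of ahr-1 had an FDR below 0.05, as did 1 of 2 each for mec-15 and zag-1. The same count gave 2 of 2 for mec-9, 1 of 6 for mec-1, and 1 of 1 each for atat-2 and mec-6. None passed among the 2 sites each of mec-2, egl-46 and vab-15, or at the 1 site each of egl-44 and ptl-1. The wider window takes in more sites, and 41.4% of all listed sites were lower in L2 at that threshold.

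**Figure D4:**
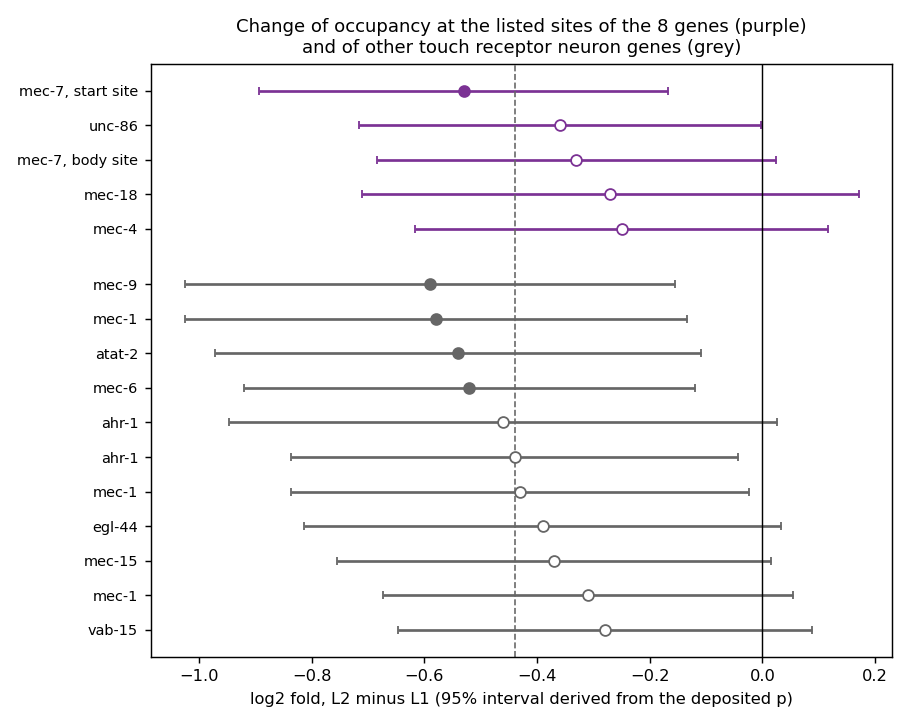
Log2 fold of occupancy, L2 minus L1, at the 5 listed sites of the 8 genes (purple) and the 11 of the other touch receptor neuron genes (grey), from the authors' deposited table, with 95% intervals derived from the deposited p; filled points have an FDR below 0.05 and the dashed line is the median of all listed sites, -0.44. All intervals include the dashed line, and 1 purple and 4 grey points are filled.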

How the data were processed

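The processed data were a peak list per stage, called on merged ChIP libraries with outliers left out per the peak names, and a comparison of the stages. The submitters' processing notes name BWA, SAMtools, MACS2, ChIPseeker and DiffBind. Their versions, the normalization, the control and the genome build are not stated in the sources used here. Coordinates are as in the files, with the first base as 1. Each deposited peak has a score (10 times the -log10 q), a fold enrichment ratio over control, and a -log10 q-value. The authors' deposited comparison gives log2 concentrations, a log2 fold (L2 minus L1), and a p-value with its FDR. It lists sites with an FDR up to 0.3, 14675 of about 16890 tested, as estimated from the relation of p and FDR.

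Rows were selected by gene name with Python 3.11.15, pandas 2.3.3 and NumPy 2.4.6, and figures were drawn with matplotlib 3.10.9. No new test across sites was made, and the call was the deposited FDR at under 0.05. Standard errors equal the absolute log2 fold divided by the normal quantile of the deposited p (SciPy 1.17.1), which takes the authors' test as normal. This step and the overlap counts were tested on simulated data. The simulated p-values came from a normal test, so whether the authors' test was normal was not checked. Overlap means at least 1 bp. All 8 genes are named with every peak and site, and other touch receptor neuron genes where they had a listed site. The genes mec-2, zag-1, egl-46 and ptl-1 and those without a peak were named after their values were seen. From the tubulin and channel families up to 3 genes of lowest FDR are named, and neighbours where they hold a peak or site within 1 kb of a member. Genes and lists were chosen with earlier results of these data known. The labels do not say that replicates are separate cultures. The deposited p-values then reflect spread among libraries only, and that spread may be technical. Alternatives were other FDR thresholds, a stricter q-value, reciprocal overlap, assignment by overlap with the gene, and folds relative to the common median.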

Additional observations from a re-analysis of the deposited data

How the results depend on the processing

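At an FDR below 0.01 the authors' deposited DiffBind table left 0 lowered sites in 0 of the 8 genes and 0 lowered sites among the other touch receptor neuron genes, where 2 and 6 sites had an unadjusted p under 0.05 (64% of all listed sites were lower at that p). At an FDR below 0.1 there were 2 lowered sites in 2 genes, unc-86 joining mec-7, and 6 among the other genes. Counting sites by overlap with the gene extended by 1 kb gave 2 lowered sites of 9, against 1 of 5 by gene name and 41.4% of all listed sites. The second lay inside mec-12 and was assigned to Y53G8B.1 (log2 fold -0.64, FDR 0.0185 in the authors' deposited table). Counting by overlap also gave 8 L2 peaks, 27 L1 peaks and, as an alternative chosen after seeing the data, 5 genes with an L2 peak. With a -log10 q of 10 or more, 0 L2 peaks and 1 L1 peak, at unc-86, were left. A reciprocal overlap of 50% left 4 of the L1 peaks with an L2 partner. With the common median of -0.44 subtracted, the mec-7 start site was at -0.09, and the 95% interval of its fold, -0.89 to -0.17, excludes 0 and includes the median. The count of lowered sites stayed at 1 because it kept the calls against 0 and took only the direction from the shifted folds. Under the same shift the folds of unc-86 (0.08), the later mec-7 site (0.11), mec-18 (0.17) and mec-4 (0.19) changed sign; the cause of these shifts is the subtraction itself. No paired analysis was possible because the files hold no values per library, and for the same reason no library could be left out. Depth per library is unknown, so its limit on these values could not be computed.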

Other observations

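The relatives of the touch receptor tubulins and channel subunits had LIN-14 peaks as well, but such peaks were common. Of the 18846 genes with any peak or listed site, 18651 had an L1 peak, and 32.8% of those also had an L2 peak. Genes with neither are left out of the 18846, so the L1 share is no baseline for families picked by name. Of 14 other tubulin genes, 3 had an L2 peak and 11 an L1 peak. At an FDR below 0.05, 4 of their 12 sites in the authors' deposited table were lower and 1 was higher in L2, with a median log2 fold of -0.42. The sites of lowest FDR in the authors' deposited table belonged to the beta-tubulin gene ben-1 (-0.72 ± 0.20, FDR 0.0121) and the alpha-tubulin gene tba-4 (-0.67 ± 0.20, FDR 0.0139), both lower in L2. Next came a site upstream of the start of tbb-4 (0.68 ± 0.21, FDR 0.0162 in the authors' deposited table), which was higher. The other tbb-4 site, nearer to the start, had a log2 fold below 0 and missed the threshold (-0.39 ± 0.21, FDR 0.1 in the authors' deposited table).

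Of 28 other genes of the degenerin and epithelial sodium channel family, to which mec-4 and mec-10 belong, 12 had an L2 peak and 26 an L1 peak. At an FDR below 0.05, 6 of their 24 sites in the authors' deposited DiffBind table, in 5 genes, were lower in L2 and 0 were higher, with a median log2 fold of -0.38. The lowest FDR values in the authors' deposited table were at acd-2 (-0.69 ± 0.20, FDR 0.0121), egas-2 (-0.62 ± 0.23, FDR 0.0332) and deg-1 (-0.51 ± 0.19, FDR 0.0337). Both family shares are to be read against the 41.4% of all listed sites that were lower in L2 in the authors' deposited table, and the tubulin site that was higher against the 0.123% that were.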
